A study of Mus musculus with 1545 samples.

Results

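Expression of 5 orphan nuclear receptor genes was followed through the neurons of the mouse dorsal horn: Rora and Rorb of the ROR family, Nr2f1 and Nr2f2 of the COUP-TF family, and Esrrg, an estrogen-related receptor. They were chosen by name, as the rows of these 5 genes among the 24378 genes of a table of molecule (UMI) counts for 1545 single cells, each cell being one sample. Touch, pain and itch fibres end in the dorsal horn of the spinal cord. Of the cells, 637 came from C57bl6 wild-type mice aged 18 to 28 days, in 67 capture runs. A vGat-Cre-tdTomato line, whose Cre is driven by the vesicular GABA transporter gene of inhibitory neurons, gave 537 cells at 17, 18 and 24 days in 8 runs. A vGlut2-eGFP line, whose green fluorescence is driven by the vesicular glutamate transporter gene of excitatory neurons, gave 371 cells at 23 to 26 days in 7 runs. The labels record no treatment, and the sources used here do not say how fluorescent cells were chosen. They name no animals either, so the counts of all cells that share a line, a sex label and an age were added up, which gave 17 animal sets (10 wild type, 3 vGat, 4 vGlut2). These sets are the replicates: the number of mice in a set is unknown, both wild-type sets of 22 days may come from shared mice, and p-values measure the spread between sets only.

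Nuclear receptors are transcription factors that carry a DNA-binding zinc finger domain and a pocket for small lipophilic ligands. RORs bind DNA mostly as monomers and drive transcription, and they also act on the circadian clock. COUP-TFs bind as dimers, most often repress transcription, and help to set neuronal identity in the developing brain. Estrogen-related receptors are active without estrogen and promote mitochondrial energy genes. In the mouse dorsal horn, neurons marked by Rora are known to carry light touch, and Rorb is known from inhibitory interneurons.

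In counts summed over all lines, the members of each family differed in the class of neuron that held more of their RNA. Not all of these differences were called in each comparison below. The sequence just upstream of each start site is shown for the ROR and the COUP-TF pairs for that reason. Whether these sequences bear on the class was not tested. The 120 bases before the RefSeq start site (mouse build GRCm38.p6) are written 5′ to 3′ on the strand of the gene. Capitals mark matches on either strand to 3 promoter motifs, the CCAAT box (CCAAT), the GC box (GGGCGG) and the TATA sequence (TATAA), none of which overlaps another in the windows shown.
Rora, chr9:68653666-68653785, plus strand: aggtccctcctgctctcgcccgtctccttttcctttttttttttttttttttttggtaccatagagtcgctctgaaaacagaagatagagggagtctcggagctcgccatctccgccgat
Rorb, chr19:19111197-19111316, minus strand: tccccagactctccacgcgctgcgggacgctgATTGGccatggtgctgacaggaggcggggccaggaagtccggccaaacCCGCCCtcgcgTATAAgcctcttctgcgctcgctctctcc
Nr2f1, chr13:78198874-78198993, minus strand: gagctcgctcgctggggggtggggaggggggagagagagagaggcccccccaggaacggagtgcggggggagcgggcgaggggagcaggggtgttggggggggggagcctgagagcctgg
Nr2f2, chr7:70366747-70366866, minus strand: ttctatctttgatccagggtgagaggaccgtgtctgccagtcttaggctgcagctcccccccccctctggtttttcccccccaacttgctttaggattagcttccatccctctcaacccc
The Rorb window shown held 1 match to each of the 3 motifs, and those shown for Rora, Nr2f1 and Nr2f2 held no match (0). An Esrrg window on chromosome 1, not shown, held 1 TATA sequence. Rorb and Nr2f1 have 2 RefSeq windows each, Esrrg has 4, and Rora and Nr2f2 have 1 each. Of these 10 windows, 2 held a CCAAT box, 2 a GC box and 2 a TATA sequence, so windows not shown hold motifs too. Of all 32851 RefSeq promoter windows, 21.3% held a CCAAT box, 26.5% a GC box and 11.8% a TATA sequence in these 120 bases. The core motif of nuclear receptor binding sites, AGGTCA, was in none of the 10 windows of the 5 genes (0), against 6.91% of all windows. The share of G and C was 75.8% for Nr2f1 and 66.7% for Rorb, 55.8% for Nr2f2, 48.3% for Esrrg and 47.5% for Rora, where the median window had 54.2%. The start site of Nr2f1 lies 884 bases inside the gene as GENCODE draws it, and that of Esrrg also lies inside its gene. On the same build the gene Rora spans chr9:68653786-69388246, Rorb chr19:18930605-19111196, Nr2f1 chr13:78188973-78199757, Nr2f2 chr7:70351944-70366735 and Esrrg chr1:187608791-188214885.

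All cells together held 14853604 UMIs, with a median of 8808 per cell (3012 to 32886), and medians of 8687 in wild type, 10413 in the vGat line and 7030 in the vGlut2 line. The authors annotated 30 types, 14 inhibitory (760 cells), 15 excitatory (767 cells) and 1, Glut_Gal (18 cells), whose cluster and cell type labels disagree and which was kept out of both classes. Markers fitted the classes: a UMI of Gad1, Gad2, Slc32a1, Slc6a5 or Pax2 was seen in 100% of inhibitory cells of the wild type and vGat line, and one of Slc17a6, Tlx3 or Lmx1b in 92.02% of wild-type and 98.4% of vGlut2-line excitatory cells. Inhibitory markers were also seen in 56 wild-type excitatory cells (13.97% of them, summed level 57.98 CPM) and in 19 of the vGlut2 line (5.21%, 10.7 CPM), CPM being counts scaled to a total of 1000000. The summed level of 8 oligodendrocyte markers was 25370 CPM in inhibitory and 32750 CPM in excitatory wild-type cells, against 2848 CPM in inhibitory cells of the vGat line (sets 1306 to 4236) and 2869 CPM in excitatory cells of the vGlut2 line (sets 76.5 to 34420). No capture run held cells of more than 1 line (0 of 82). In every comparison between lines, the line and its runs cannot be told apart, and the part of the oligodendrocyte RNA was not tested.

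The 5 genes were sparse. A UMI of Rorb was found in 36.4% of all cells (2021 UMIs), of Nr2f1 in 31.1% (902 UMIs), of Nr2f2 in 17.2%, of Rora in 10.6% and of Esrrg in 4.53% (86 UMIs). In these sums of RNA, fewer cells with a gene and less of its RNA per cell cannot be told apart. Because depth differed between lines, each cell was thinned to 3000 UMIs before shares of cells with a UMI were taken. Rorb was then seen in 40.5% of inhibitory cells (exact binomial 95% interval 37.0 to 44.1) and 4.82% of excitatory cells (3.42 to 6.59), and Nr2f2 in 15.7% (13.2 to 18.4) and 1.17% (0.538 to 2.22). Both lay on the inhibitory side. Nr2f1 was seen in 10.5% of inhibitory cells (8.44 to 12.9) and 22.4% of excitatory cells (19.5 to 25.6), and Rora in 2.90% (1.82 to 4.35) and 7.95% (6.14 to 10.1). Both lay on the excitatory side. Esrrg was seen in 2.11% of inhibitory cells (1.21 to 3.396) and 0.391% of excitatory cells (0.0807 to 1.14). Without thinning, at median depths of 10430 and 7364 UMIs, the same shares were 64.7% and 8.48% for Rorb, 32.8% and 2.09% for Nr2f2, 25.4% and 37.0% for Nr2f1, 8.29% and 12.9% for Rora, and 8.16% and 1.04% for Esrrg. Intervals cover counting error only.

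**Figure D1:**
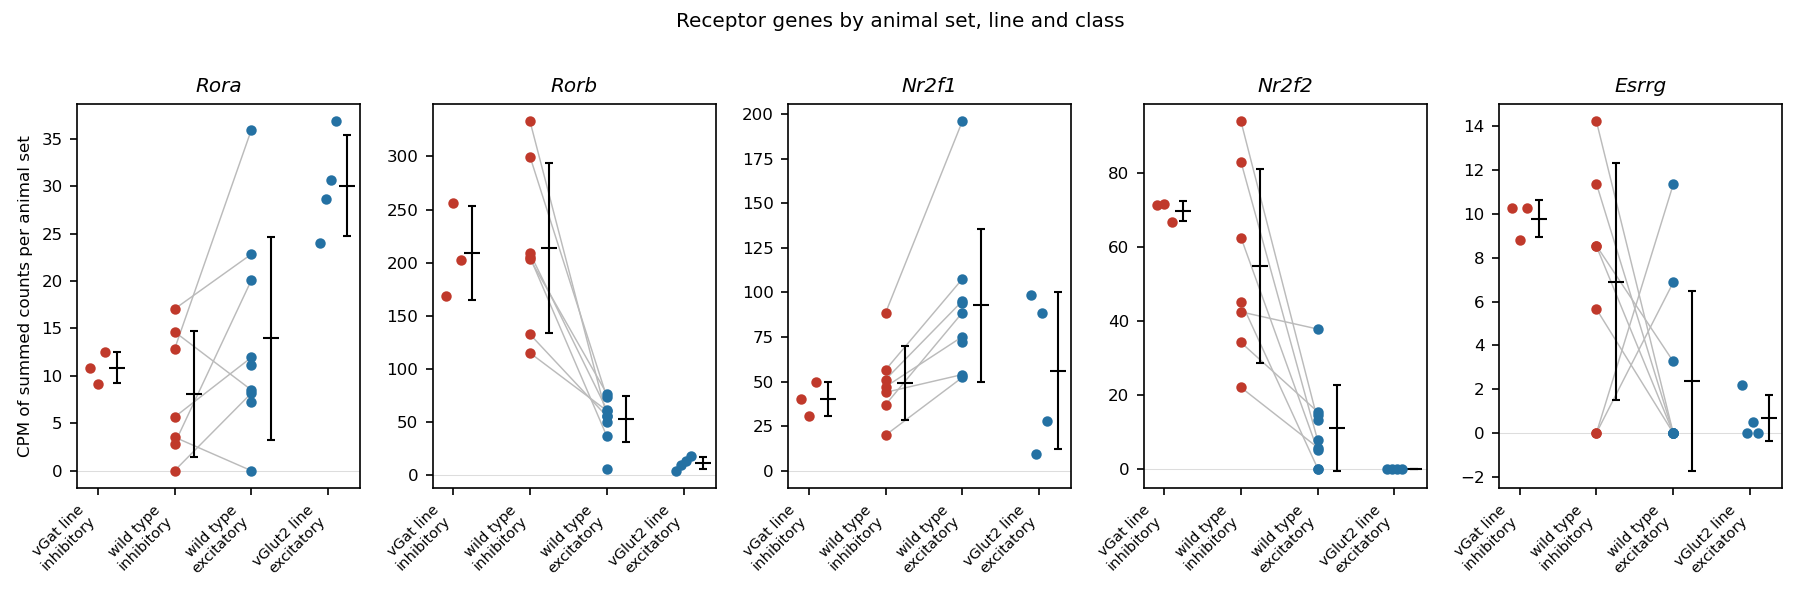
CPM of each gene (y axis) in each animal set of at least 10 cells, for inhibitory cells (red) of the vGat line and of wild type and excitatory cells (blue) of wild type and of the vGlut2 line. Grey lines join the classes of the same wild-type set, and black marks show mean ± SD. Rorb and Nr2f2 were higher in the inhibitory cells of all 7 wild-type sets that could be paired, and Nr2f1 was lower in all 7.

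The first comparison asked which of the genes separate inhibitory from excitatory neurons when cells are grouped by genotype, which uses no measured gene. In the vGat line Rorb, Nr2f2 and Esrrg were higher and Rora was lower than in the vGlut2 line, and Nr2f1 did not pass the test. Over all genes, 8.85% of 10598 tested were called at an adjusted p under 0.05 (4.32% higher and 4.53% lower in the vGat line; edgeR quasi-likelihood test, Benjamini-Hochberg over all genes). Of the 5 members, 3 were called higher and 1 lower. The ages of the lines overlapped only in part, and with age as a covariate Rorb (4.25) and Nr2f2 (7.09, both log2) kept their calls while Rora and Esrrg did not.

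Rorb, the ROR of sensory circuits, stood at 168.4, 256.3 and 202.6 CPM in the vGat sets of 17, 18 and 24 days, and at 4.34, 9.57, 13.8 and 12.6 CPM in the vGlut2 sets of 23, 24, 25 and 26 days. Every vGat set lay far above every vGlut2 set. The means were 209.1 ± 44.3 (SD, n = 3) and 10.1 ± 4.21 CPM (n = 4), and the fit put the vGat line 4.16 higher on the log2 scale (SE 0.30, edgeR adjusted p = 2.35e-07). Nr2f2, also known as COUP-TFII, stood at 71.1, 71.6 and 66.8 CPM in the vGat sets. In the vGlut2 line it gave 1 UMI in all, in the 26-day set (6.29 CPM), and 0 in the other 3 sets. That UMI lay in 1 of the 5 cells of this line annotated as inhibitory, and the excitatory cells held none (0 UMIs, which allows up to 1.14 CPM, taking 3 counts as the limit). The fitted log2 difference was 7.16 (SE 0.56, edgeR adjusted p = 5.54e-07), and the ratio of the summed levels was 188.5 with a counting interval of 33.6 to 7462. With 1 UMI in the vGlut2 line, Nr2f2 passed the filter on low counts through the vGat sets. The size of the fitted difference depends on the prior count.

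Esrrg, the estrogen-related receptor, gave few UMIs. It stood at 10.2, 8.81 and 10.3 CPM in the vGat sets, and at 2.17, 0, 0.511 and 0 CPM in the vGlut2 sets of 23, 24, 25 and 26 days. The groups did not overlap. These are 55 UMIs against 2, a ratio of 12.9 with a counting interval of 3.395 to 108.8 (fitted log2 difference 3.48, SE 0.68, edgeR adjusted p = 0.00279; with age as a covariate 3.49, SE 0.96, adjusted p = 0.0707). With so few UMIs in the vGlut2 line, Esrrg passed the filter on low counts through the vGat sets. Leaving out 1 set at a time, it passed that filter in only 3 of 7 fits, and kept its call in those (3.43 to 4.15).

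Rora, the ROR whose loss causes ataxia in the staggerer mouse, ran the other way. It stood at 10.8, 9.19 and 12.5 CPM in the vGat sets and at 23.9, 28.7, 30.7 and 25.1 CPM in the vGlut2 sets. The groups did not overlap, and the fitted change was -1.44 (log2, SE 0.29, edgeR adjusted p = 0.00416). The call was lost without the 25-day vGlut2 set, which holds 76.8% of the cells of that line (-1.30, adjusted p = 0.110), and with age as a covariate (-1.17, adjusted p = 0.266). Nr2f1, also known as COUP-TFI, stood at 40.4, 30.6 and 49.9 CPM in the vGat sets and at 102.1, 9.57, 88.5 and 25.1 CPM in the vGlut2 sets. The vGlut2 sets lay on both sides of the vGat sets, the smaller sets of 24 days (19 cells) and 26 days (17 cells) below them. The log2 difference was -0.99 (SE 0.32, edgeR adjusted p = 0.0691), and it passed the threshold without the 24-day set (-1.12, adjusted p = 0.0255) or without the 26-day set (-1.13, adjusted p = 0.00126).

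The second comparison set the annotated classes of wild-type neurons against each other within the same animal sets, over the 7 sets in which both classes had 10 cells or more. The authors drew the classes from these same counts, so the comparison is not independent of them. Rorb and Nr2f2 were again higher in inhibitory cells, and Nr2f1 was lower. Of 8135 genes tested, 5.63% were called (3.17% higher and 2.46% lower). Of the members, 3 passed the filter on low counts, and all 3 of these were called. Rora and Esrrg did not pass it.

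Rorb ranged from 115.1 to 332.9 CPM with a median of 205.1 in wild-type inhibitory cells, and from 36.9 to 76.8 CPM with a median of 60.9 in excitatory cells. Inhibitory cells were higher in 7 of 7 sets and the ranges did not overlap, and the fitted change was 1.72 (log2, SE 0.19, edgeR adjusted p = 1.95e-06). Nr2f2 ranged from 22.0 to 94.1 CPM (median 45.2) in inhibitory and from 0 to 37.8 CPM (median 7.61) in excitatory cells. Inhibitory cells were higher in 7 of 7 sets, although the ranges overlapped (log2 difference 2.22, SE 0.41, edgeR adjusted p = 0.00145). Nr2f1 ranged from 19.9 to 88.5 CPM (median 47.04) in inhibitory and from 52.3 to 195.9 CPM (median 88.6) in excitatory cells. It was lower in the inhibitory cells of 7 of 7 sets (log2 difference -1.03, SE 0.19, edgeR adjusted p = 0.00108), and without the animal set as a block the call was lost (-0.999, adjusted p = 0.0529). Rora gave 17 UMIs in inhibitory and 54 in excitatory cells, a ratio of 0.460 with a counting interval of 0.250 to 0.805, and was lower in the inhibitory cells of 5 of 7 sets. Esrrg gave 21 UMIs against 7, a ratio of 4.38 (1.79 to 12.2), and was higher in 5 of 7 sets.

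The same class was then compared across lines. Inhibitory cells of the vGat line and of wild type did not differ past the threshold in any of the 3 members tested, by edgeR (0 at an unadjusted p under 0.05) or by DESeq2. By edgeR 21.2% of 7687 genes were called, and 2587 passed an unadjusted p under 0.05. The log2 difference, vGat line minus wild type, was -0.08 for Rorb (SE 0.23, edgeR adjusted p = 0.836), -0.34 for Nr2f1 (SE 0.29, adjusted p = 0.439) and 0.25 for Nr2f2 (SE 0.25, adjusted p = 0.504). Rorb stood at 209.3 ± 44.0 CPM in 3 vGat sets and 213.9 ± 79.7 CPM in 7 wild-type sets, a pair of means closer than either spread.

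In excitatory cells, Rorb was lower in the vGlut2 line than in wild type. It stood at 4.37, 9.57, 13.8 and 18.4 CPM in the vGlut2 sets, and between 5.55 and 76.8 CPM with a median of 55.6 in 9 wild-type sets. Of the wild-type sets, that of 28 days was the lowest and fell within the vGlut2 range. The fitted change was -2.37 (log2, SE 0.42, edgeR adjusted p = 0.000488), and 15.1% of 7163 genes were called in this comparison. Rora stood at 30.1 ± 5.30 CPM in the vGlut2 line and 13.98 ± 10.7 CPM in wild type (0.87, SE 0.45, adjusted p = 0.208), and Nr2f1 at 56 ± 44.01 and 92.7 ± 42.95 CPM (-0.44, SE 0.34, adjusted p = 0.432). Nr2f2 gave 0 UMIs in the vGlut2 line and 39 in wild type, which makes it at least 9.09-fold lower when 3 counts are put in place of the 0. Neither Nr2f2 nor Esrrg (2 UMIs against 7) passed the filter.

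The wild-type excitatory signal of Rorb sat in few cells. Only 15 cells held at least 5 UMIs each, and together they held 76.8% of its UMIs, and 9 of these 15 had no UMI of an inhibitory marker. The highest, a Glut_Cck_Cpne4 cell of 19 days, held 23 UMIs and no inhibitory marker UMI (0), whereas no vGlut2-line excitatory cell held more than 3. The type Glut_Cck_Cpne4 alone stood at 658.7 CPM in wild type (21 cells; counting interval 556.9 to 773.8) and 136.5 CPM in the vGlut2 line (13 cells; 72.7 to 233.5), and the 16 wild-type cells of it without an inhibitory marker stood at 616.5 CPM. Wild-type excitatory cells with an inhibitory marker UMI stood at 136.8 CPM (56 cells), those without at 44.02 CPM. Over all lines Glut_Cck_Cpne4 is the type with the highest Rorb level. Fits without it therefore select on Rorb itself, and a smaller difference in them tests no cause. Leaving out both Glut_Cck_Cpne4 and cells with an inhibitory marker UMI, a choice made after seeing the data, Rorb stood at 10.3 CPM (7.01 to 14.7) in wild type and 7.54 CPM (4.47 to 11.9) in the vGlut2 line. The log2 difference was then -0.71 (SE 0.69, edgeR adjusted p = 0.572, no filter on low counts). Without Glut_Cck_Cpne4 alone it was -1.65 (adjusted p = 0.0541), and without the cells with a marker UMI alone -2.02 (adjusted p = 0.00287). The oligodendrocyte marker level and the capture run also differed between these lines, and their part in the difference was not tested.

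The 39 UMIs of Nr2f2 in wild-type excitatory cells lay in 16 cells, 11 of them in 1 Glut_Elavl4_Meis2 cell of 22 days that also held 3 UMIs of inhibitory markers. Cells with an inhibitory marker UMI stood at 26.1 CPM and those without at 7.23 CPM (23 UMIs), still above the 0 of the vGlut2 line.

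**Figure D2:**
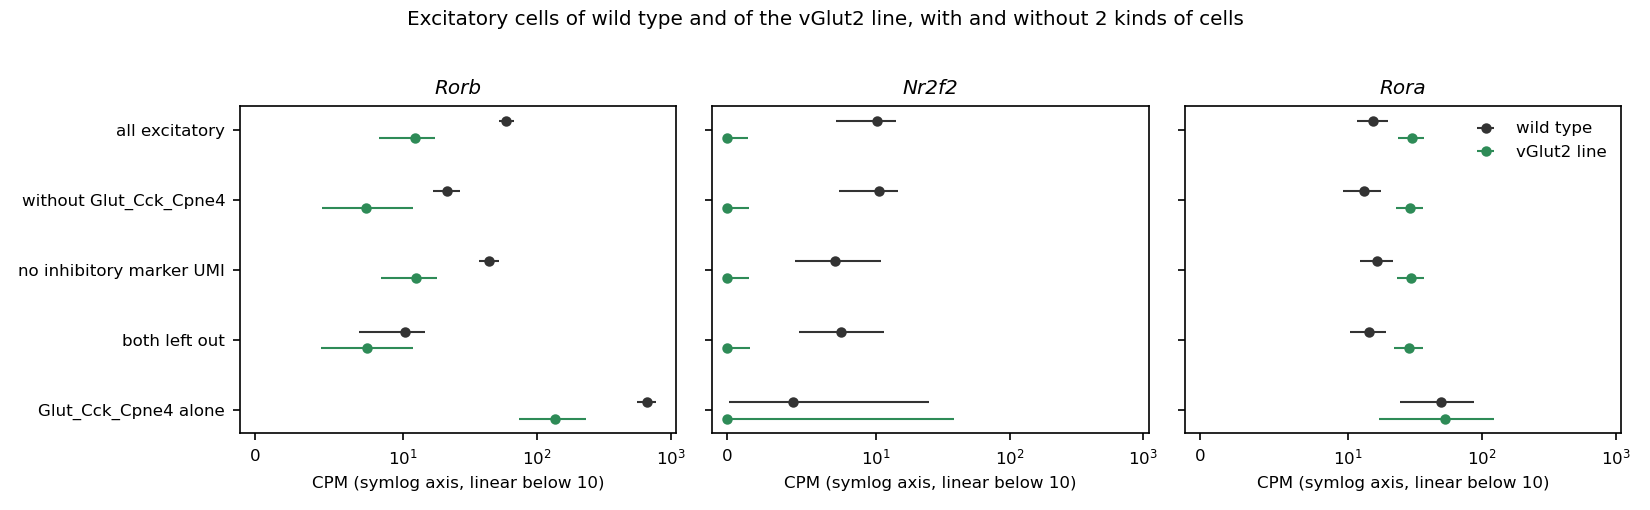
CPM of Rorb, Nr2f2 and Rora in excitatory cells of wild type (dark) and of the vGlut2 line (green), for all cells, without Glut_Cck_Cpne4, without cells holding an inhibitory marker UMI, without both, and for Glut_Cck_Cpne4 alone. The axis is linear below 10 and logarithmic above, and bars are exact Poisson 95% intervals. Rorb falls from 59.03 to 10.3 CPM in wild type when both kinds of cells are left out, and from 12.2 to 7.54 CPM in the vGlut2 line. Over all lines Glut_Cck_Cpne4 is the type with the highest Rorb level.

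The size of the class difference was tested between reporter lines and wild type as an interaction term, in which 0.289% of 8316 genes were called. It was larger in the reporter lines for Rorb by 2.25 on the log2 scale (SE 0.50, edgeR adjusted p = 0.0291) and for Nr2f2 by 6.04 (SE 1.34, adjusted p = 0.0318), where the latter value rests on 0 UMIs in the vGlut2 line and depends on the prior count. The classes of 7 wild-type sets may share mice, and with the set as a block, a fit added after seeing the data, both calls stayed (2.40, edgeR adjusted p = 0.00299, and 6.21, adjusted p = 0.0283). It did not differ past the threshold for Rora (-0.45, adjusted p = 0.999) or Nr2f1 (0.04, adjusted p = 0.999). Leaving out 1 set at a time, the Rorb term ran from 2.00 to 2.81 and lost its call in 7 of 16 cases, and the Nr2f2 term ran from 5.70 to 6.30 and lost it in 6 of 16. Without the 25-day vGlut2 set the edgeR adjusted p was 0.181 for Rorb and 0.494 for Nr2f2. Without Glut_Cck_Cpne4 the Rorb term was 1.51 (edgeR adjusted p = 0.596), a fit that leaves out the type with the highest Rorb level.

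Age gave no called member (0 by edgeR and, where DESeq2 gave an adjusted p, 0 by DESeq2). An unadjusted p of 0.05 was passed by 2 members, both in inhibitory cells. Many more of the 6352 genes tested there passed that level than the 3 that were called, so passing it does not set these members apart. In wild-type inhibitory cells, Rorb stood at 205.1, 332.9, 203.5, 299.7, 132.6 and 115.1 CPM in the male-labelled sets of 18, 19, 20, 21, 26 and 27 days. The 2 oldest sets were the lowest. The slope was -0.147 per day on the log2 scale (SE 0.039, edgeR unadjusted p = 0.000689, adjusted p = 0.272), where 3 of 6352 genes were called (0.0472%). Nr2f2 stood at 22.0, 62.6, 34.2, 45.2, 94.1 and 83.1 CPM in the same sets, with the 2 oldest sets the highest, and a slope of 0.136 per day (SE 0.052, edgeR unadjusted p = 0.0133, adjusted p = 0.595). In excitatory cells of 8 sets the slopes were -0.052 for Rorb (edgeR adjusted p = 0.805) and 0.028 for Nr2f1 (adjusted p = 0.869), where 0.0269% of 7424 genes were called.

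Across the 30 annotated types, levels are descriptions, since the types were clustered from these counts. Neighbours in the order of levels are said to differ where their means over animal sets with at least 3 cells of the type were further apart than the larger SD. Levels are not compared between genes.

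Over all lines Rora was led by Glut_Cck_Maf at 119.5 CPM (counting interval 79.4 to 172.7), with a UMI in 34.4% of its 32 thinned cells. Its 3 sets with enough cells held between 109.7 and 176.2 CPM, while the 5 wild-type sets with 1 or 2 of its cells each held no Rora UMI (0). The type stood at 80.5 CPM in wild-type and 187.8 CPM in vGlut2-line cells. The lead rests on the vGlut2 line, since in wild type Glut_Tac2_3 was higher at 107.3 CPM (8 cells), against 34.4 CPM in the vGlut2 line. The step to the next type was the only one of 26 in the order that exceeded the spread. Glut_Tac2_3 (58.1 CPM), Glut_Cck_Cpne4 (50.0), Glut_Cck_Trh (41.2), GABA_Cplx1_Sorcs3 (29.2), Glut_Nts (27.5), Glut_Tac2_2 (26.6), GABA_Cplx1_Sst (25.2), Glut_Elavl4_Meis2 (22.0) and GABA_Cplx1_Adamts5 (21.4) followed. All 3 types named for Cck, the cholecystokinin precursor, were thus among the first 4 with all lines pooled. In wild type alone Glut_Cck_Trh (29.2 CPM) lay below GABA_Cplx1_Adamts5 (35.2 CPM). A further 16 types lay between 2.22 (GABA_Gal_Rspo3) and 18.7 CPM (Glut_Tac2_1). Rora was at 0 UMIs in 4 inhibitory types, GABA_Crabp1, GABA_Crabp1_Spp1, GABA_Npy_Qrfpr and GABA_Npy_only, of which the largest, GABA_Npy_Qrfpr, had 51 cells.

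With all lines pooled, Rorb was found in all 14 inhibitory types, at 58.3 CPM or more, yet its highest level was in an excitatory type. This order rests on the wild-type cells: Glut_Cck_Cpne4 led in wild type at 658.7 CPM, but in the reporter lines it stood at 136.5 CPM, below 7 inhibitory types, of which GABA_Calb2_Krt17 was the highest at 368.9 CPM. Over all lines Glut_Cck_Cpne4 held 503.3 CPM (counting interval 428.6 to 587.3), or 62.9% of all Rorb UMIs in excitatory cells. Its 5 sets with enough cells gave 387.9, 722.5, 514.7 and 895.7 CPM in wild type at 18, 20, 21 and 27 days, and 183.6 CPM in the vGlut2 line. The 4 wild-type sets all exceeded the vGlut2 set. GABA_Tac2 (426.7 CPM, 11 cells), GABA_Cplx1_Sorcs3 (408.3), GABA_Calb2_Krt17, GABA_Calb2_Tac1 (316.7) and GABA_Gal_Rspo3 (279.1) came next. None of the steps among these that could be judged exceeded the spread. GABA_Cplx1_Sst (191.9), GABA_Crabp1 (190.4), GABA_Crabp1_Spp1 (118.7) and GABA_Gal_Pnoc (109.1) were in the middle. The other inhibitory types, GABA_Npy_Crabp1, GABA_Npy_Qrfpr, GABA_Cplx1_Adamts5, GABA_Cplx1_Calb2 and GABA_Npy_only, ran from 92.1 down to 58.3 CPM. In wild-type cells alone these 5 types stood, in the same order, at 29.6 (2 UMIs), 54.5, 29.3, 79.3 and 21.96 CPM (2 UMIs). Among excitatory types, Glut_Elavl4_Meis2 (61.2), Glut_Elavl4_Lypd1 (37.1), Glut_Cck_Trh (34.3) and Glut_Tac1_1 (21.5) were the next, 8 types lay between 1.87 and 14.4 CPM, and Glut_Cck_Maf and Glut_Reln_Npff were at 0. Glut_Gal, whose labels disagree, stood at 49.3 CPM. The type that led Rora thus held no Rorb UMI (0 in 32 cells, which allows up to 12.8 CPM), while Glut_Cck_Cpne4 held both.

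Nr2f1 was the one member detected in all 30 types. Glut_Cck_Trh held 438.9 CPM (counting interval 366.2 to 521.8), with a UMI in 70.6% of its 34 thinned cells and 299.3, 435.8 and 479.2 CPM in the 3 sets with enough cells. The step to the next type, Glut_Nts at 157.3 CPM, exceeded the spread. GABA_Cplx1_Adamts5 was the only inhibitory type among the first 12, at 151.5 CPM, and Glut_Tac2_1 (113.6), Glut_Qrfpr (105.3), Glut_Elavl4_Lypd1 (81.7), Glut_Reln_Npff (76.7) and Glut_Tac2_2 (74.8) followed. All 15 excitatory types stood at 29.9 CPM or more. The inhibitory types other than GABA_Cplx1_Adamts5 ran from 51.5 CPM in GABA_Gal_Pnoc to 10.9 CPM in GABA_Npy_only.

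Nr2f2 was highest, over all lines, in a type named for Cplx1, the synaptic protein complexin. GABA_Cplx1_Sorcs3 held 307.1 CPM (counting interval 263.8 to 355.6), a UMI in 62.5% of its 56 thinned cells, and 33.3% of all Nr2f2 UMIs in inhibitory cells. It stood at 274.8, 432.9 and 167.9 CPM in the vGat sets of 17, 18 and 24 days, and at 192.4 and 471.2 CPM in the wild-type sets of 20 and 27 days. The lines overlapped, and the step to the next type exceeded the spread. GABA_Cplx1_Adamts5 (119.4), GABA_Cplx1_Calb2 (78.1), GABA_Calb2_Tac1 (73.7), GABA_Cplx1_Sst (63.98), GABA_Npy_Qrfpr (47.03) and GABA_Crabp1 (36.9) came next. Glut_Elavl4_Meis2 was the highest excitatory type at 29.4 CPM, of which 11 of 12 UMIs were those of the single cell above. The remaining inhibitory types lay at 29.1 CPM or less, the remaining excitatory types at 11.6 CPM or less, and 7 types were at 0, of which 6 were excitatory.

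Over all lines Esrrg was led by GABA_Crabp1 (30.7 CPM, counting interval 17.2 to 50.7), GABA_Crabp1_Spp1 (22.3, 3 UMIs), GABA_Cplx1_Sst (19.4), GABA_Cplx1_Sorcs3 (18.9) and GABA_Npy_Crabp1 (15.4). The sets of GABA_Crabp1 with enough cells ran from 0 to 80.0 CPM, and none of 26 steps in the order exceeded the spread (0). Of the excitatory types 11 were at 0, and Glut_Elavl4 was the highest at 11.7 CPM (5 UMIs).

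**Figure D3:**
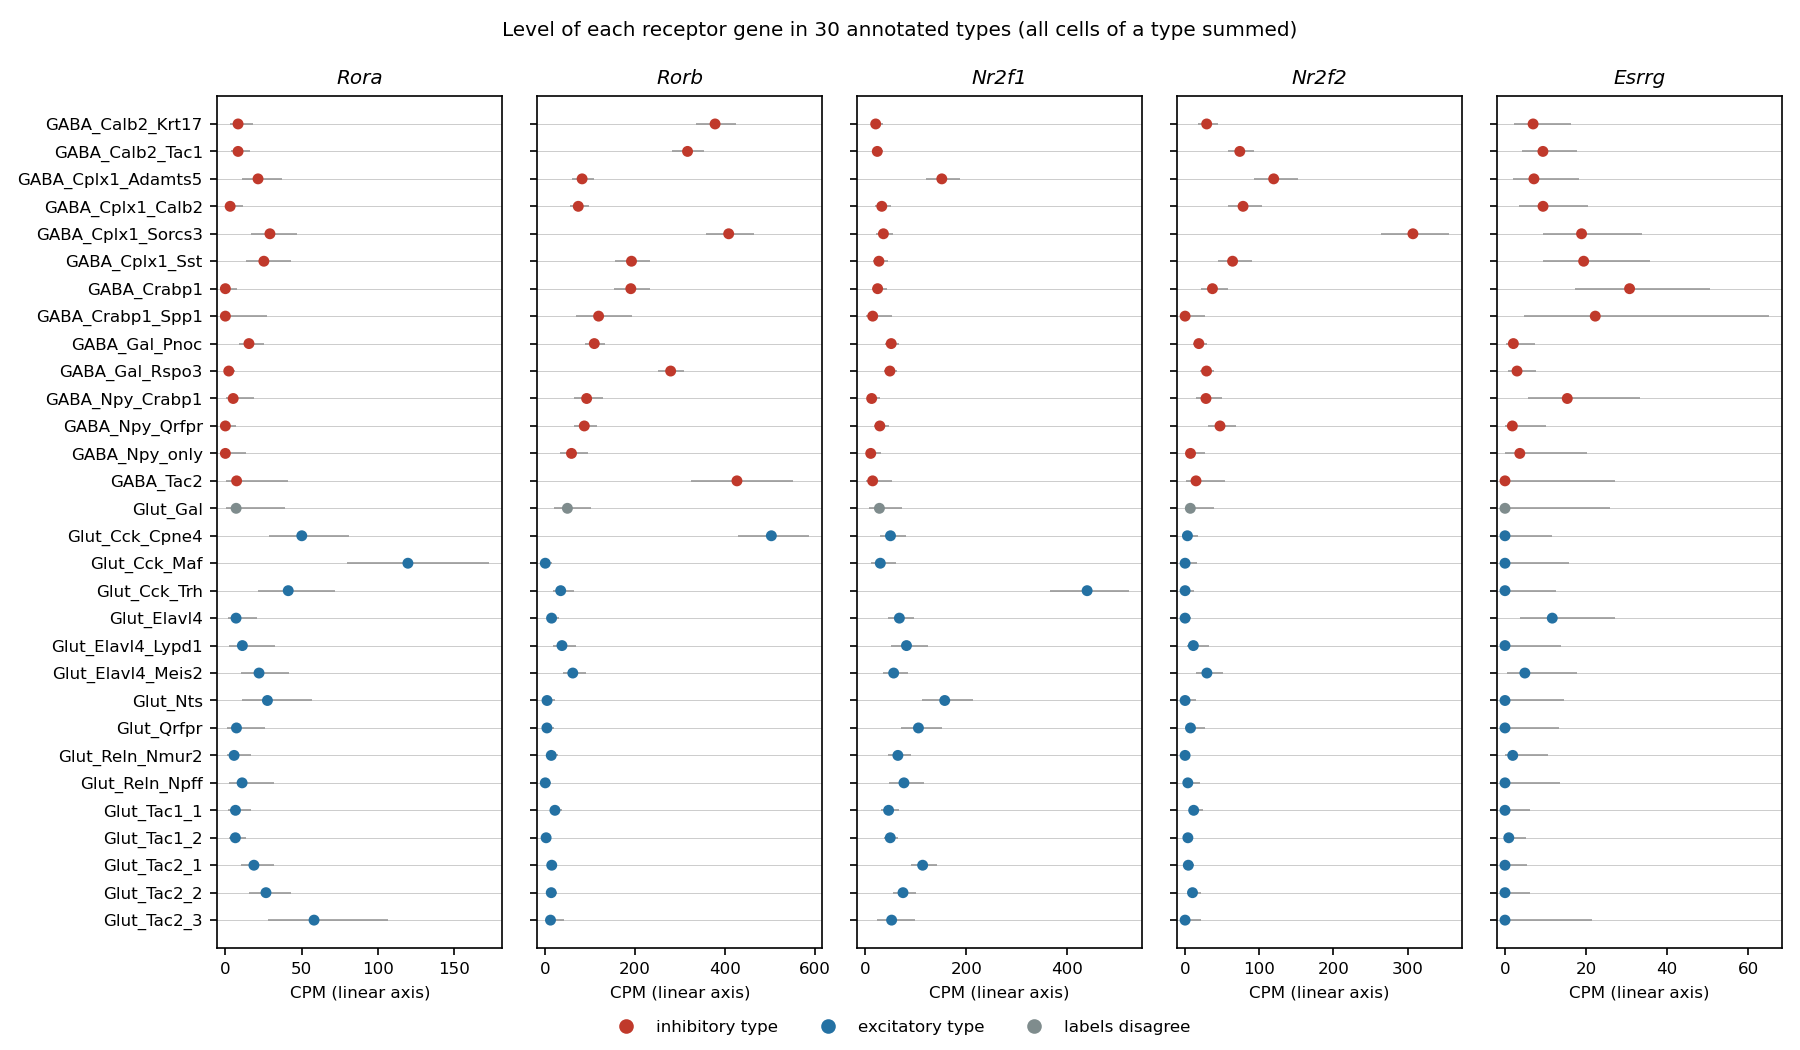
CPM of each gene (x axis, linear) in the 30 annotated types, with exact Poisson 95% intervals; inhibitory types are red, excitatory types blue, and the type whose labels disagree grey. With all lines pooled, Rorb lies at 58.3 CPM or more in all 14 inhibitory types and at 503.3 CPM in the excitatory type Glut_Cck_Cpne4. Nr2f1 peaks at 438.9 CPM in Glut_Cck_Trh and Nr2f2 at 307.1 CPM in GABA_Cplx1_Sorcs3.

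UMIs of more than 1 member were found in the same cell in many types. In GABA_Cplx1_Sorcs3, 42 of 56 cells held a UMI of both Rorb and Nr2f2, where 46 held Rorb and 51 held Nr2f2, and all 56 held a UMI of some member. In GABA_Cplx1_Adamts5, 21 of 66 cells held both Nr2f1 and Nr2f2, where 39 held Nr2f1 and 33 held Nr2f2. Over all inhibitory cells, 71.1% of those with Nr2f2 also held Rorb, against 64.7% of all inhibitory cells. Of those with Rorb, 35.98% also held Nr2f2, against 32.8% of all. Whether members shared cells more often than their single shares give was not tested. At the other end, 29.5% of the cells of Glut_Tac1_2 held a UMI of any member, the lowest share among the 30 types. These counts are unthinned and rise with the depth of a type.

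As a description over types, which share libraries and depth, the levels of Rorb and Nr2f2 (log2 of CPM + 1) had a Pearson r of 0.605 over 30 types, 0.275 in wild-type cells alone and 0.233 over the 14 inhibitory types. Nr2f1 and Nr2f2 had r = -0.306 over all types but 0.536 over inhibitory types. Rora and Nr2f1 had r = 0.502 over all types and -0.011 over the 15 excitatory types. The relations thus depended on which types entered.

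The 3 genes whose levels over the 30 types were most like each member's were taken from 11223 genes with at least 20 CPM in some type. For Rorb they were Lhx5, a LIM homeodomain factor (r = 0.832; 0.662 in wild-type cells), Cacna2d3, a calcium channel subunit (0.806; 0.765), and Sall3, a zinc finger factor (0.802; 0.688). For Nr2f2 they were Lhx1, a relative of Lhx5 (0.760; 0.549), 4930426D05Rik (0.740; 0.444) and Plk2, a kinase (0.732), the last with r = 0.025 in wild-type cells. For Rora they included B3gat1, a glycan-synthesising enzyme (0.841; 0.689), and Rnd1, a small GTPase (0.797; 0.734). For Nr2f1 they were Cacna1d, a calcium channel subunit (0.828; 0.712), A830082K12Rik (0.804; 0.591) and Cngb1, a cyclic nucleotide-gated channel subunit (0.751; 0.405). A830082K12Rik, with 76 UMIs, overlaps Nr2f1 on the opposite strand, and since counting by strand is not stated, reads of the pair cannot be told apart. B130024G19Rik (19 UMIs) lies likewise opposite Nr2f2. For Esrrg all 3 were genes of mitochondrial or cytosolic energy metabolism: Mdh1, a malate dehydrogenase (0.842; 0.758), Ndufa9, a subunit of respiratory complex I (0.814; 0.501), and Idh3a, a subunit of isocitrate dehydrogenase (0.813; 0.673). Esrrg had 86 UMIs in all and was at 0 in 13 of the 30 types. The share of such genes among the 11223 was not taken, and a link to Esrrg was not tested.

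**Figure D4:**
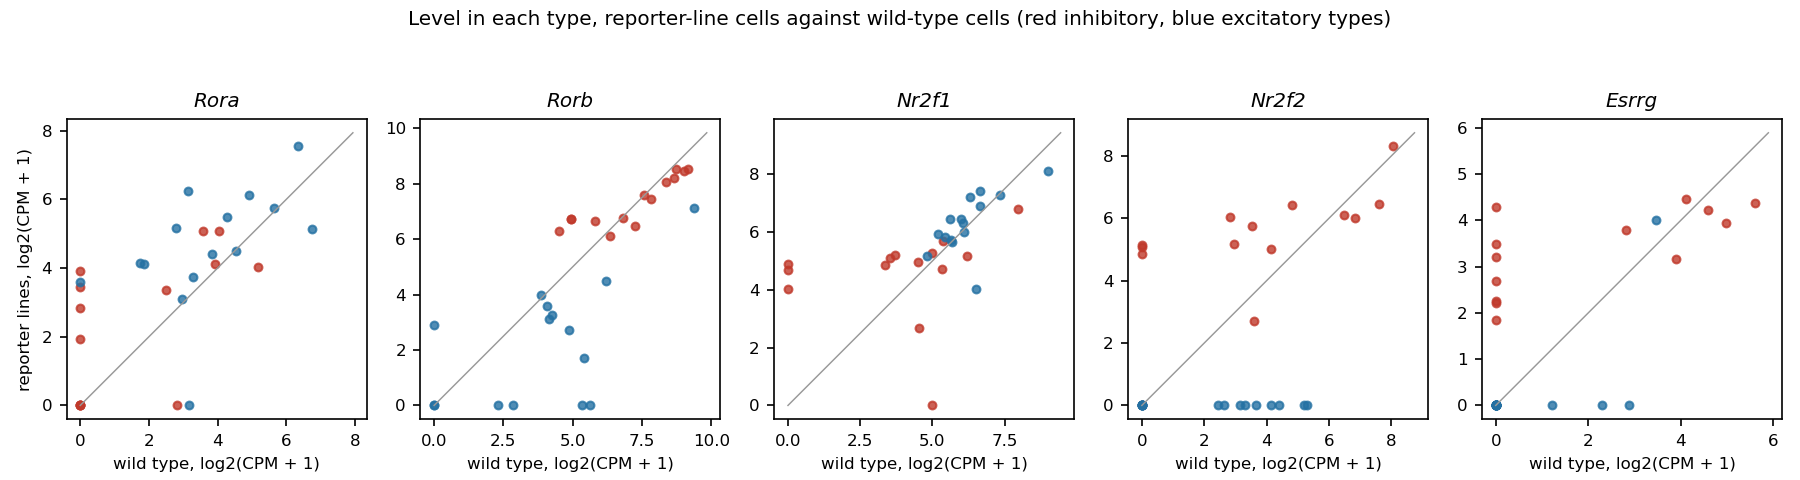
Levels (log2 of CPM + 1) of each gene per type in reporter-line cells (y axis) against wild-type cells (x axis), one point per type. Cells of both reporter lines are pooled in a type. Some inhibitory types thus include a few vGlut2-line cells, and Glut_Elavl4_Lypd1 includes 1 vGat-line cell. The diagonal marks equal levels. Rorb lies below the diagonal in 11 of 15 excitatory types, and Rora above it in 12 of 15. Some of these points rest on few UMIs, such as 1 Rorb UMI in all of Glut_Nts. Types share libraries and are not replicates.

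The types themselves were present in different proportions in the lines. Given the wild-type proportions of types, the excitatory cells of the vGlut2 line would stand at 13.95 CPM of Rorb in place of 12.2, against 59.03 CPM in wild type. The vGlut2 line was lower than wild type in 11 of 15 types and higher in 2. Some of these types held only 1 or 2 Rorb UMIs over all lines, and types share libraries, so they are not replicates. Rora would stand at 36.8 CPM in place of 29.7, against 15.3 CPM in wild type, and was higher in 12 of 15 types and lower in 3. The vGlut2 line had 1 cell of Glut_Elavl4_Lypd1, with 1 Rora UMI. That cell was given the wild-type share of its type, so the value of 36.8 CPM leans on this 1 UMI. In inhibitory cells of the vGat line Rorb would stand at 178.7 CPM in place of 216.8, which turns the line from slightly above the wild-type level to 0.867 times that level. Nr2f2 would stand at 64.2 in place of 70.4 CPM, against 53.01 CPM in wild type.

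The members were set beside the other genes of their pathway. Of 44 other nuclear receptors in the table, 18 passed the filter in the comparison of reporter lines, with 0 called higher and 3 lower in the vGat line (4.32% and 4.53% of all genes), and a median log2 difference of -0.12 against -0.01 over all genes. Counted at an edgeR unadjusted p under 0.05, which 2196 of all 10598 genes passed in either direction, 1 was higher and 4 were lower. DESeq2 called 0 higher and 2 lower. Nr3c1, the glucocorticoid receptor, stood at 22.9 ± 5.12 CPM in vGat and 80.6 ± 40.6 CPM in vGlut2 sets (-2.04, SE 0.28, edgeR adjusted p = 0.000121). Rxrg, a retinoid X receptor, stood at 4.24 ± 2.19 and 31.4 ± 19.6 CPM (-2.72, SE 0.45, adjusted p = 0.000782). Nr4a1, an activity-induced orphan receptor, stood at 39.4 ± 18.2 and 79.9 ± 53.3 CPM (-1.35, SE 0.38, adjusted p = 0.0349), and its call was lost without any of 4 sets, most without the 25-day vGlut2 set (-0.34, adjusted p = 0.756). In wild-type classes 9 were tested and 2 called, both lower in inhibitory cells, where 2.46% of all genes were called lower: Nr3c1 in 7 of 7 sets (-1.21, SE 0.17, edgeR adjusted p = 5.91e-05) and Nr4a1 in 6 of 7 (-1.06, SE 0.25, adjusted p = 0.0118).

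Of 21 coregulators, 19 were tested between reporter lines, with 3 called higher in the vGat line and 0 lower (4.32% and 4.53% of all genes), and a median log2 difference of 0.22. At an edgeR unadjusted p under 0.05, 4 were higher and 1 lower, where 2196 of 10598 genes passed in either direction. DESeq2 called 3 higher and 0 lower. Bcl11a and Bcl11b, zinc finger proteins that bind COUP-TFs, stood at 140.7 ± 13.1 against 35.2 ± 21.2 CPM (1.70, SE 0.27, edgeR adjusted p = 0.000516) and at 87.7 ± 19.0 against 21.8 ± 18.7 CPM (1.80, SE 0.31, adjusted p = 0.000908). Ppargc1a, a coactivator of estrogen-related receptors, stood at 53.9 ± 8.53 against 18.7 ± 10.3 CPM (1.29, SE 0.27, adjusted p = 0.00474; lost without the 25-day vGlut2 set, 1.09, adjusted p = 0.136). In wild-type classes 18 were tested and 2 called, both higher in inhibitory cells, where 3.17% of all genes were called higher. Bcl11a was higher in 7 of 7 sets (0.89, SE 0.18, edgeR adjusted p = 0.00246). Bcl11b was higher in 6 of 7 (0.97, SE 0.25, adjusted p = 0.0193), and lost its call without the set of 18, 19 or 20 days (0.77 to 0.91).

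Of 15 clock genes, which RORs are known to act on, 13 were tested between reporter lines, with 1 called in each direction (4.32% and 4.53% of all genes) and a median log2 difference of -0.38. At an edgeR unadjusted p under 0.05, 1 was higher and 5 lower, where 2196 of 10598 genes passed in either direction. Hlf, a clock output factor, stood at 116.5 ± 23.6 CPM in vGat and 55.9 ± 22.4 CPM in vGlut2 sets (0.96, SE 0.24, edgeR adjusted p = 0.0162; lost without the 18-day vGat or the 23-day vGlut2 set). Bhlhe40, a repressor of the clock, stood at 27.9 ± 2.48 and 40.5 ± 27.5 CPM (-1.05, SE 0.29, edgeR adjusted p = 0.0326) and lost its call without any of 5 sets and with DESeq2 (-0.82, adjusted p = 0.372). In wild-type classes 10 were tested and 0 called by edgeR or DESeq2. At an edgeR unadjusted p under 0.05, 1 was higher and 2 lower, where 1285 of 8135 genes passed in either direction.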

How the data were processed

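The authors deposited raw UMI counts for every gene in every cell, and in all 1545 cells their sum equals the molecule total that the labels state. Cell Ranger and mm10 appear in the submitters' processing notes. Tool versions, filters on cells or doublets, and strand-specific counting: not given in the sources used here. Droplet-kit steps close the labels' protocol, although each title gives a run and a well. No cell was removed here, and 6 annotation lines of the table were left out.

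Counts were summed per animal set (line, sex label, age label), or per set and class for sets with at least 10 cells. edgeR 4.0.16 in R 4.3.3 (quasi-likelihood test, TMM, filterByExpr, Benjamini-Hochberg over all genes tested, threshold 0.05) gave all tests; DESeq2 1.42.0 was an alternative. Wild-type classes were fitted with the animal set as a block, since both classes of a set share a line, a sex label and an age and may come from the same mice. Deviations of the classes of a set correlated by 0.045 to 0.243. CPM are counts scaled to 1000000. Shares used cells thinned to 3000 UMIs, with exact binomial 95% intervals; floors are 3 counts over a group. Fits were tested on simulated counts. Gene positions follow GENCODE M21 and promoters RefSeq, with all 5 genes matched.

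The members and gene lists were chosen with earlier results of these data known. Named list genes had an adjusted p under 0.05 in the reporter lines or wild-type classes and at least 20 CPM in the higher group, up to 5 per direction and list. For each member the 3 genes most like it over types were taken, of which 1 is not reported here. Some analyses of cell subsets and of type proportions were chosen after seeing the data. Alternatives are in the closing section.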

Additional observations from a re-analysis of the deposited data

Results flagged for a closer look

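Of 19 groups of 4 to 10 animal sets in which the spread could be judged, 3 had a set far from the others. The limit used flags about 1 in 20 groups of normally distributed values. Many of these groups are low counts with zeros, so how many chance would flag here is not known. Nr2f1 stood at 195.9 CPM in excitatory cells of the 22-day wild-type set labelled female (35 cells, 57 UMIs), where the other 8 sets ran from 52.3 to 107.5 CPM. Its 2 Glut_Cck_Trh cells held 23 of these UMIs. Nr2f2 stood at 37.8 CPM in the same cells (11 UMIs), where the other sets ran from 0 to 15.4 CPM, and all 11 UMIs lay in 1 Glut_Elavl4_Meis2 cell. Nr2f2 stood at 6.285 CPM in the 26-day vGlut2 set, which is 1 UMI, where the other 3 sets were at 0. With the others at 0, any UMI in a single set is flagged.

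The class difference was larger in the reporter lines than in wild type for Rorb, by 2.249 on the log2 scale, and for Nr2f2, by 6.043, each by the test of the interaction term. Inhibitory markers in excitatory cells stood at 57.98 CPM in wild type and 10.7 CPM in the vGlut2 line. In cells without a UMI of the other class's markers, chosen after seeing the data, the terms were 1.81 (edgeR adjusted p = 0.271) and 5.28 (adjusted p = 0.144).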

How the results depend on the processing

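Of the values of the members under all alternatives, 22 fell below the threshold, 5 rose above it, 14 without a test moved by more than the spread, and 9 changed sign, none of them past the threshold in either fit. These were Rorb in inhibitory cells across lines, at 0.019 with no filter and from -0.25 to 0.068 with 1 set left out; the Nr2f1 interaction, from -0.11 to 0.26; and the Rorb age slope in excitatory cells, from -0.099 to 0.0026 per day. In the reporter lines, Nr2f1 passed the threshold with no filter on low counts (-0.93), with capture runs as the unit (-1.13) and with one class per line (-1.01), and ran from -1.13 to -0.76 with 1 set left out. Rora ran from -1.52 to -1.30 with 1 set left out and was -1.17 with age as a covariate, where Esrrg was 3.49; neither then passed. No replicate block in the wild-type classes gave -0.999 for Nr2f1 (lost), 1.76 for Rorb and 2.29 for Nr2f2, and called 0.523 times as many genes higher and 0.53 times as many lower (main 3.17% and 2.46% of genes). It changed no other call of a member. The interaction with wild-type sets as a replicate block, added after seeing the data, gave 2.40 for Rorb, 6.21 for Nr2f2, -0.25 for Rora and 0.07 for Nr2f1. Chosen after seeing the data, Rorb in excitatory cells lost its call without Glut_Cck_Cpne4 (-1.65) and without both kinds of cells (-0.71), each with no filter; the class terms lost theirs without Glut_Cck_Cpne4 (Rorb 1.51) and in cells without markers of the other class (Rorb 1.81, Nr2f2 5.28), and ran from 2.00 to 2.81 (Rorb) and 5.70 to 6.30 (Nr2f2) with 1 set left out. Fits without Glut_Cck_Cpne4, the type with the highest Rorb level over all lines, select on Rorb itself. The cause was not tested.

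Unthinned, shares in inhibitory and excitatory cells were 8.29% and 12.9% for Rora, 64.7% and 8.48% for Rorb, and 25.4% and 37.0% for Nr2f1, and in inhibitory cells 32.8% for Nr2f2 and 8.16% for Esrrg. With another random seed, excitatory shares were 5.74% for Rora and 19.3% for Nr2f1; the expected shares over all thinnings were 6.27% and 20.5%. Rora in Glut_Cck_Maf was 80.5 CPM in wild-type and 187.8 CPM in reporter cells, and in reporter cells Rorb in Glut_Cck_Cpne4 was 136.5 and Nr2f1 in Glut_Cck_Trh 278.1 CPM. Reporter lines called 458 genes higher and 480 lower, against 870 and 833 by capture run; as multiples of the main counts, age as a covariate gave 0.406 and 0.3, and leaving out 1 set 0.434 to 1.62 and 0.44 to 1.53. Leaving out 1 set gave 0.392 to 0.995 (higher) in inhibitory and 0.38 to 1.38 (higher) and 0.379 to 1.18 (lower) in excitatory cells across lines; no filter gave 1.55 (higher, inhibitory) and, in wild-type classes, 1.61 (lower). The interaction called 7 and 17 genes, against 26 and 65 with no filter, 8 and 29 by DESeq2, 6 lower in cells without markers of the other class, and 0 to 2.29 and 0.471 to 1.41 times as many with 1 set left out. The age slopes called 3 genes in inhibitory and 2 in excitatory cells, and 6 and 5, and 12 and 9 (higher and lower), with no filter. DESeq2 called 0 clock genes lower between reporter lines. At these depths a member with few UMIs per set, such as Esrrg or Rora, can be judged only for large differences.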
